A study of Mus musculus with 6 samples.

Results

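The mitochondrial ribosomal proteins were taken as all rows of the deposited gene table whose mouse symbol is Mrpl or Mrps with a number and at most 1 letter, that are protein-coding and that have 10 or more counts in 3 or more libraries. This gave 78 genes of 55414 rows. All 78 rows with such a symbol were protein-coding and all 78 met the count rule, so no member was lost to a filter and no row lay just outside it. The member nearest to the limit was Mrpl23, whose lowest library held 33 counts; the next lowest value of any member in any library was 131 counts. By known location, 51 members sit in the large subunit of the mitochondrial ribosome and 26 in the small subunit. The large-subunit count includes Mrps18a and Mrps30, whose names say otherwise. The remaining member, Mrps36, carries the name but is known as a subunit of the 2-oxoglutarate dehydrogenase complex of the citric acid cycle.

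The libraries came from AY-mICC, a mouse line used as a model of intrahepatic cholangiocarcinoma, a bile duct cancer that arises inside the liver. By the labels, 3 libraries are of control genotype (shCon) and 3 are of cells with Copa knocked down (shCopa), all grown in the same serum-containing medium with no further treatment. The prefix of the titles is that of short hairpin RNA. Whether the cells of a group were 1 clone or a pool, and whether replicates were separate cultures, is not given in the sources used here, so p-values measure only the spread between these libraries, which may be technical. Copa encodes a subunit of COPI, the coat of vesicles that return proteins from the Golgi to the endoplasmic reticulum, and the study's title asks what targeting COPI does to CD8+ T cell immunity against this tumour.

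Mitochondrial ribosomes translate the few messenger RNAs of the mitochondrial genome, all of which encode subunits of the respiratory chain and ATP synthase. Their RNA parts, a small and a large rRNA, are made inside the mitochondrion, whereas every one of their proteins is encoded in the nucleus, made in the cytosol and imported. Many of the proteins descend from bacterial ribosomal proteins and the others were added in the mitochondrial lineage. Nuclear genes for mitochondrial proteins are known targets of the transcription factors NRF1, GABP (an ETS factor) and YY1, and of coactivators of the PGC-1 family.

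Promoter sequences were taken from the RefSeq table of build GRCm38.p6, which holds 300 bases a window and matched 69 of the 78 members with 75 windows. The promoters of 7 members that hold the letters marked here are shown, with 250 bases before the annotated start and 30 from it. Capitals mark the letters GCGCATGC (core of the NRF1 site), CCGGAAG (ETS) and AAGATGGC (YY1), or their reverse complements. The first 5 genes were higher in shCopa in at least 1 of the fits described below, and the last 2 were lower. These 7 do not stand for the members as a whole, since 55.1% of members with a promoter held any of these letters. Mrpl1, Mrpl11, Mrpl20, Mrpl28, Mrpl55, Mrps2 and Mrps15, also called in both fits, had none of them and are not shown. Mrpl48, which fell in both fits, held the ETS letters and is not shown either. Mrpl4 and Mrpl54, which fell in both fits too, were not matched to a promoter.
Mrpl32, chr13:14613008-14613287, minus strand: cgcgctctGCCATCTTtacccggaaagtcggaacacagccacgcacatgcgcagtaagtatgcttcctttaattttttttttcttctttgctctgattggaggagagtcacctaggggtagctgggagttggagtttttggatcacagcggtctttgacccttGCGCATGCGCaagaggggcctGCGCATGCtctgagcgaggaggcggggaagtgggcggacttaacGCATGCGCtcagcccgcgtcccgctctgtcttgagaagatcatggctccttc
Mrps18b, chr17:35916411-35916690, minus strand: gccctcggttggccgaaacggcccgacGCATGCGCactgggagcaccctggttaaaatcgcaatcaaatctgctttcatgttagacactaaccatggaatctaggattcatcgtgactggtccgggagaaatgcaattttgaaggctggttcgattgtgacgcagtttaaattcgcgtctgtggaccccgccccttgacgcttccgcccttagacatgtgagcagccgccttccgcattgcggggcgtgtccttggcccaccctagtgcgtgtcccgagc
Mrpl33, chr5:31613701-31613980, plus strand: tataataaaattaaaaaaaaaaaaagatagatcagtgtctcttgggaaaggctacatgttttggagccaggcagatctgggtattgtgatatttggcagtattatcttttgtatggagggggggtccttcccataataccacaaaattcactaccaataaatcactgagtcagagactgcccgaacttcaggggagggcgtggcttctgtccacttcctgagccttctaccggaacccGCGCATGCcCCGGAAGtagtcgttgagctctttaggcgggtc
Mrps27, chr13:99344536-99344815, plus strand: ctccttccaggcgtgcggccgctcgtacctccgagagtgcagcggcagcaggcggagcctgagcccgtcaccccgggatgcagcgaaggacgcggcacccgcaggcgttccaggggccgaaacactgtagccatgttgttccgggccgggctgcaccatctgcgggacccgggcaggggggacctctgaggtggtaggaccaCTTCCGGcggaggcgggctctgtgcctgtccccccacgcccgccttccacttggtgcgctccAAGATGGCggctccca
Mrps12, chr7:28741792-28742071, minus strand: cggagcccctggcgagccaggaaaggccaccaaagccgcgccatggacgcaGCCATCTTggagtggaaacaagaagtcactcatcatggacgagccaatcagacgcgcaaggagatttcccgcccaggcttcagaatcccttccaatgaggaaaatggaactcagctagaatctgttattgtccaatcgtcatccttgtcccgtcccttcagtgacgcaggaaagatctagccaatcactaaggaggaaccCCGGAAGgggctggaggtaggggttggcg
Mrpl43, chr19:45006413-45006692, minus strand: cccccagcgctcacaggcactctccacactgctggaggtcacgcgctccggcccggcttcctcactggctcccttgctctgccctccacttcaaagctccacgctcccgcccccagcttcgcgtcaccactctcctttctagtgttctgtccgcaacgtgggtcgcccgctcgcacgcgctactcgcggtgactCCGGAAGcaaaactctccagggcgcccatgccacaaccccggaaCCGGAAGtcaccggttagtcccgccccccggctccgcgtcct
Mrps21, chr3:95871485-95871764, minus strand: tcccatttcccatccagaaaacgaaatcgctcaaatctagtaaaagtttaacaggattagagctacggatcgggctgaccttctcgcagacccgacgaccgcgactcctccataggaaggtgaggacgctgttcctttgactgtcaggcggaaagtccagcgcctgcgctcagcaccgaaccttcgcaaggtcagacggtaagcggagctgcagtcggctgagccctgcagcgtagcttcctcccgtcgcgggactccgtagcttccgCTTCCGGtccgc

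The capitals show where these promoters differ. Mrpl32 holds the NRF1 core at 3 places, at one of which the letters and their reverse complement overlap, together with a YY1 core. Mrpl33 has an NRF1 core directly before an ETS match close to the annotated start. Mrps27 and Mrps12 each pair an ETS match with a YY1 core, and Mrpl43 carries 2 ETS matches and neither of the other motifs.

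Over the whole 300-base windows, on both strands, the NRF1 core was present in 8 of 69 members (11.6%), against 5.67% of promoters of all genes tested and 3.05% of all promoters in the table. The ETS letters were present in 26 members (37.7%, against 19.5% of tested genes and 9.93% of all promoters). The YY1 core was present in 12 members (17.4%, against 5.20% and 3.19%). At least 1 of these 3 was found in 55.1% of members and 27.5% of tested genes. The more general CCAAT letters were found in 39.1% of members and 43.1% of tested genes, and TATAAA in 7.25% and 9.01%. These are letter matches in a window, not measured binding.

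The control libraries differed among themselves on these genes, and this bears on every comparison that follows. Values are CPM, counts scaled to library size with TMM factors. Added over all 78 members, the level was 3154 CPM in shCon 1, 2081 in shCon 2 and 2099 in shCon 3, and 2110, 2229 and 2299 CPM in shCopa 1 to 3. The shCon 1 sum was 1.51 times the mean of the other 2 controls, and the other 5 libraries lay close together. Of the 78 members, 73 were higher in shCon 1 than in both other controls, where 43.3% of all tested genes were; 2 members were lower there than in both. In 63 members shCon 1 was the highest of all 6 libraries. An excess above 1.5-fold over the mean of shCon 2 and 3 was found in 36 members and in 13.7% of tested genes.

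**Figure D1:**
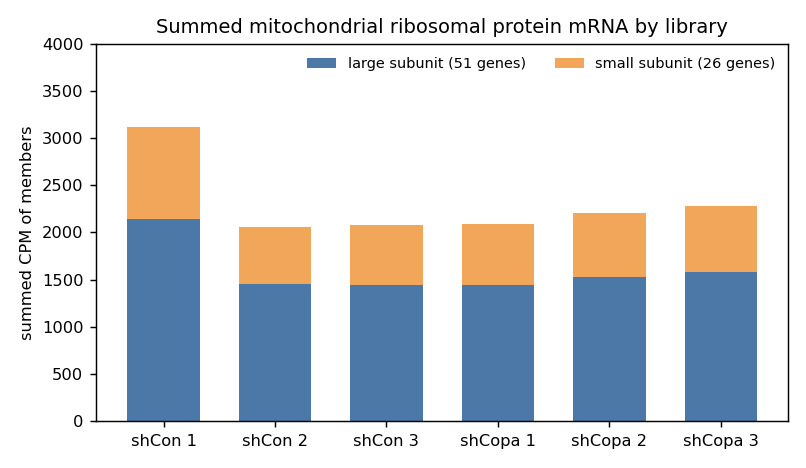
Summed level of mitochondrial ribosomal protein mRNA in each of the 6 libraries, in CPM, with large-subunit (51 genes) and small-subunit (26 genes) members stacked and Mrps36 left out. shCon 1 stands above the other 5 libraries, and the 2 subunits keep about the same proportion in all 6.

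The excess was shared by both subunits. The small-subunit sum was 0.456, 0.422 and 0.438 of the large-subunit sum in shCon 1 to 3, and 0.450, 0.446 and 0.438 in shCopa 1 to 3, so the shCopa ratios lay within the range of the shCon ratios. Single members differed widely. On the log2 scale, shCon 1 exceeded the mean of shCon 2 and 3 by 1.87 in Mrps24, a homologue of bacterial S3, and by 0.04 in Mrps2, while Mrpl1 (-0.03), Mrps27 (-0.06) and Mrpl23 (-0.45) were slightly or clearly below it. The median over members was 0.56 and that over all tested genes 0.00.

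Members are short genes, and short genes in general were higher in shCon 1. The median transcript length was 1302 bases for members (418 to 7300) and 2873 for tested genes; 60 members were shorter than the median tested gene. Across members the excess in shCon 1 had a Spearman rho of -0.54 with transcript length and 0.41 with GC content, against -0.57 and 0.38 across all tested genes; these points share the same 3 libraries and are given as a description. With tested genes split into 5 equal groups by length, the shortest group, up to 1599 bases, had a median excess of 0.43, and that of the 48 members in it was 0.65. In the next group the values were 0.21 and 0.32, with 10 members, and in the middle one, 2457 to 3373 bases, 0.02 and 0.64, with 8 members. Members were thus above the median of genes of their own length in these groups; the part of length or of RNA quality in the excess was not tested.

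**Figure D2:**
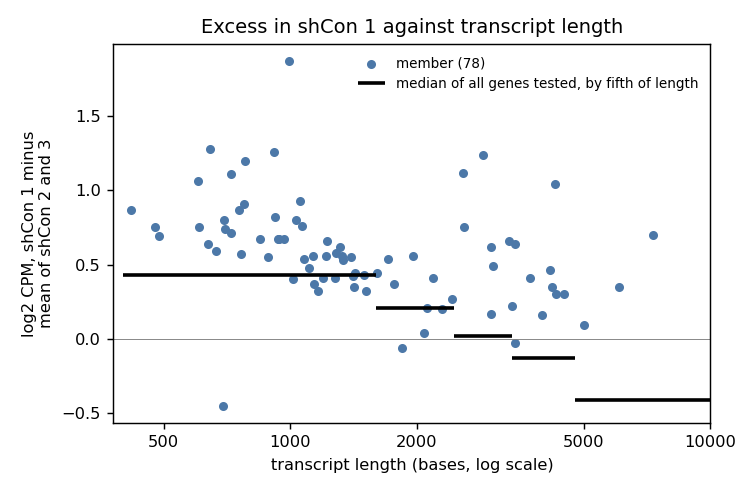
Excess of shCon 1 over the mean of shCon 2 and 3 for each of the 78 members (log2 of CPM, vertical axis) against transcript length in bases (log axis), with black lines for the median of all tested genes in each of 5 groups of length. The median of all tested genes falls from 0.43 in the shortest group to -0.41 in the longest, and most members lie above the lines.

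Levels of single members were compared per kilobase of transcript, since longer transcripts give more fragments. The median over the 78 members was 18.8 CPM per kilobase in the mean of all libraries, and 46 members were within 2-fold of it. The highest were Mrpl33 (169 CPM per kilobase), Mrpl42 (59.2) and Mrpl14 (49.4). The lowest were Mrpl47 (3.04), Mrpl23 (3.36) and Mrps35 (4.50). The lengths are those of 1 transcript a gene, so a gene that uses another transcript is misplaced in this order. Mrpl23 is uncertain: its row held 33 to 69 counts a library, while the row of its processed copy Mrpl23-ps1 held 601, 368 and 338 in shCon 1 to 3 and 263, 279 and 212 in shCopa 1 to 3, and how reads were divided between both is not known.

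The comparison of shCopa with shCon asks what the Copa knockdown does to the cells, and it is given with all 6 libraries and without shCon 1. Copa itself had 419, 516 and 526 CPM in shCon 1 to 3 and 186, 181 and 187 CPM in shCopa 1 to 3, 37.9% of control in the fit, and every knockdown library lay below every control. A member is called where edgeR's quasi-likelihood test gave a Benjamini-Hochberg adjusted p under 0.05 over all genes tested. With all libraries, 5 members rose and 10 fell; of the 14807 genes tested, 18.2% rose and 18.4% fell. In all, 19.2% of members were called against 36.5% of tested genes. The median log2 fold change, shCopa minus shCon, was -0.16 over members and -0.01 over tested genes. Without shCon 1, 25 members rose and 14 fell, where 28.3% of 15273 tested genes rose and 27.0% fell.

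That is 50% of members called, against 55.3% of tested genes, with a median log2 fold change of 0.13 over members and 0.01 over tested genes. The median member was thus lower in shCopa with all libraries and higher without shCon 1, and the share called lay below that of all tested genes in the first comparison and near it in the second; these differences from the other genes were not tested. The values of the groups did not overlap in 31 members with all libraries (6 higher, 25 lower in shCopa; 54.1% of tested genes did not overlap) and in 58 without shCon 1 (33 higher, 25 lower; 70.1% of tested genes). All 15 members called with 6 libraries were also called without shCon 1, in the same direction. Leaving it out added 20 rises and 4 falls. In 17 members the sign of the fold change turned from lower to higher, and in 4 of these (Mrpl14, Mrpl27, Mrpl30 and Mrpl52) the rise passed the test; no member turned from higher to lower. Mrpl14 (edgeR adjusted p = 0.0481) and Mrpl30 (edgeR adjusted p = 0.0494) were only just under the threshold. In Mrpl14 the groups still overlapped, with shCopa 1 at 25.4 CPM and shCon 2 at 26.4 CPM. Single knockdown libraries mattered as well: of the 15 calls, 5, 4 and 3 were kept without shCopa 1, 2 and 3, and 11 without shCon 2. Tested genes lost calls too: without shCopa 1, 2 and 3, 12.7%, 11.9% and 11.7% of them rose and 11.8%, 11.6% and 11.6% fell. Offsets were also fitted in each library to GC content and transcript length. With them, 7 members rose and 21 fell with all libraries, where 21.3% of tested genes rose and 27.0% fell. Without shCon 1, 12 members rose and 25 fell with a median of 0.01. Of tested genes, 25.6% rose and 31.5% fell there, with a median of -0.05. Under that setting falls outnumbered rises among members and among tested genes alike, so the lean of the member counts towards rises did not hold. The members' median without shCon 1 was still above that of tested genes. The biological coefficient of variation, the spread between libraries of 1 group beyond counting error, was 0.165 over all genes with shCon 1 and 0.068 without it.

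**Figure D3:**
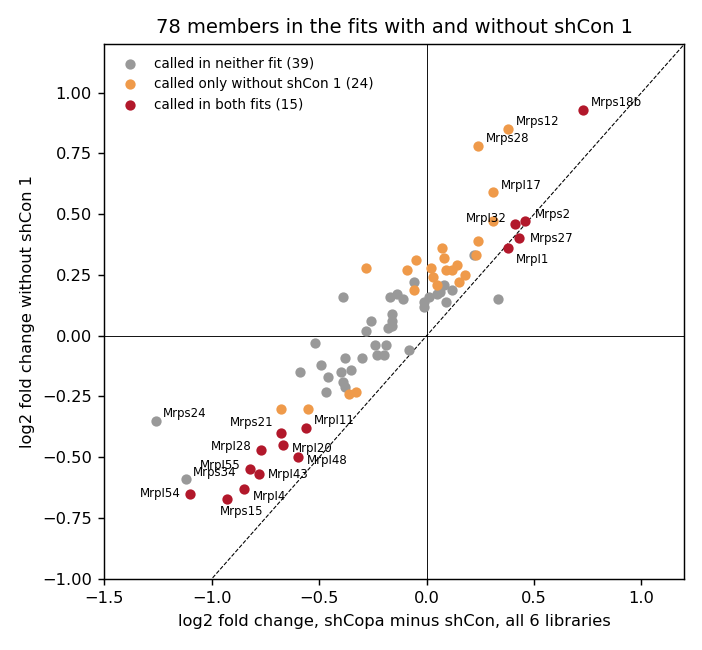
Log2 fold change, shCopa minus shCon, of each of the 78 members with all 6 libraries (horizontal) and without shCon 1 (vertical); colours show in which fits a member was called, and the dashed line marks equal values. Nearly all points lie above the line, since shCon 1 was the highest control for most members.

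In both fits 5 members rose. Mrps18b (ENSMUSG00000024436), one of 3 mitochondrial homologues of bacterial S18 and a part of the small subunit, had 43.9, 33.5 and 26.9 CPM in shCon 1 to 3 and 52.3, 55.1 and 65.5 CPM in shCopa 1 to 3. All 3 knockdown libraries lay above all 3 controls. The log2 fold change was 0.73 ± 0.18 (SE, n = 3 and 3, edgeR adjusted p = 0.0184), and 0.93 ± 0.13 without shCon 1 (edgeR adjusted p = 0.000309), a 1.90-fold rise.

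Mrps2, a small-subunit protein with a bacterial counterpart, had 30.8, 31.4 and 28.7 CPM in shCon 1 to 3 and 38.7, 39.4 and 46.9 CPM in shCopa 1 to 3. The groups did not overlap, and the 3 controls were within a narrow range. Its log2 fold change was 0.46 ± 0.11 with all libraries (edgeR adjusted p = 0.0136) and 0.47 ± 0.09 without shCon 1.

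Mrps27, a small-subunit protein of the pentatricopeptide repeat family, had 15.7, 15.1 and 18 CPM in shCon and 20.6, 22.1 and 23.1 CPM in shCopa. Again every knockdown library was above every control. The log2 fold change was 0.43 ± 0.12 (edgeR adjusted p = 0.0223) and 0.40 ± 0.10 without shCon 1.

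In the large subunit the 2 members that rose in both fits were Mrpl32 and Mrpl1. Mrpl32 (ENSMUSG00000015672), whose precursor is known to be cut by the m-AAA protease before it joins the ribosome, had 30.6, 28.3 and 26 CPM in shCon 1 to 3 and 35.5, 37.8 and 39.3 CPM in shCopa 1 to 3. The groups were apart. The log2 fold change was 0.41 ± 0.10 (edgeR adjusted p = 0.0169), and 0.46 ± 0.08 without shCon 1. Mrpl1, which forms the stalk at the exit side for spent tRNA, had 21.5, 21.5 and 22.3 CPM in shCon and 26.9, 27.2 and 30.7 CPM in shCopa. Its controls were nearly equal, and its log2 fold change was 0.38 ± 0.10 (edgeR adjusted p = 0.0215) and 0.36 ± 0.09 without shCon 1. Of the 15 members called with all libraries, Mrpl32 and Mrpl1 were the 2 that lost their call with offsets for GC content and transcript length, at 0.24 (edgeR adjusted p = 0.161) and 0.21 (edgeR adjusted p = 0.154).

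In both fits 10 members fell, and 8 of them belong to the large subunit. Mrpl43 (ENSMUSG00000025208), a large-subunit protein with no bacterial counterpart, had 83.1, 56.5 and 56.3 CPM in shCon 1 to 3 and 37.4, 38.7 and 37.8 CPM in shCopa 1 to 3. The knockdown libraries lay within 2 CPM of each other and below every control. The log2 fold change was -0.78 ± 0.16 (edgeR adjusted p = 0.00813), and -0.57 ± 0.07 without shCon 1 (edgeR adjusted p = 7.98e-07), or 0.672 of control.

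Mrpl4, a large-subunit protein with a bacterial counterpart, had 37.8, 25.8 and 24.4 CPM in shCon and 16.2, 16.1 and 16.4 CPM in shCopa. The groups were apart, and the log2 fold change was -0.85 ± 0.18 (edgeR adjusted p = 0.00803) and -0.63 ± 0.09 without shCon 1 (edgeR adjusted p = 1.02e-05). Of the 15 members called with all libraries, Mrpl4 and Mrpl43 were the 2 that stayed called under other scalings, filters and tests and with each library left out in turn, 14 alternatives in all, and the 2 that passed a threshold of 0.01. Over these alternatives their highest edgeR, DESeq2 or limma adjusted p was 0.0392 and 0.0419; for the other 13 it ran from 0.0588 in Mrps2 to 0.161 in Mrpl32.

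Mrpl48, a protein of the central protuberance, had 37.5, 29.6 and 31.2 CPM in shCon and 17.8, 23.1 and 24 CPM in shCopa, with a log2 fold change of -0.60 ± 0.15 (edgeR adjusted p = 0.0183). Mrpl20, a large-subunit protein with a bacterial counterpart, had 44.8, 31.3 and 28.9 CPM in shCon and 19.7, 22.2 and 24.1 CPM in shCopa, with -0.67 ± 0.18 (edgeR adjusted p = 0.0241). In both genes all 3 knockdown libraries were below all 3 controls. Mrpl28 (-0.77 ± 0.24, edgeR adjusted p = 0.0402) and Mrpl55 (-0.82 ± 0.21, edgeR adjusted p = 0.0206) behaved alike, and without shCon 1 their log2 fold changes were -0.47 and -0.55. Both had shCon 1 well above the other controls: Mrpl28 stood at 31.7, 18.6 and 18.5 CPM in shCon 1 to 3.

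Of the 26 small-subunit members, the 2 that fell in both fits were Mrps15 and Mrps21. Mrps15, which has a bacterial counterpart, had 29.1, 16.5 and 19.8 CPM in shCon and 12.1, 13.1 and 8.99 CPM in shCopa. Its log2 fold change was -0.93 ± 0.24 (edgeR adjusted p = 0.0192) and -0.67 ± 0.14 without shCon 1. Mrps21, likewise of bacterial descent, had 32.0, 19.6 and 19.6 CPM in shCon and 14.1, 15.2 and 15.2 CPM in shCopa, with -0.68 ± 0.20 (edgeR adjusted p = 0.0364) and -0.40 ± 0.10 without shCon 1. Neither gene had a knockdown library at or above a control.

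**Figure D4:**
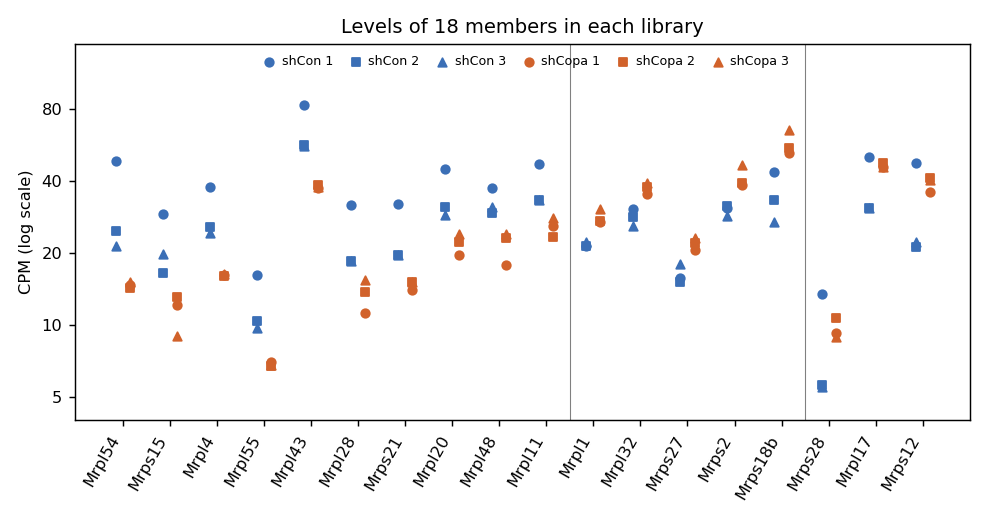
CPM in each library (log axis) of the 10 members that fell and the 5 that rose in both fits, and of Mrps28, Mrpl17 and Mrps12, which rose only without shCon 1; marker shape gives the replicate. In the members that fell, and in the last 3, shCon 1 lies above the other controls, and in Mrps28, Mrpl17 and Mrps12 it lies above the knockdown libraries.

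Of the 8 rises with the smallest adjusted p without shCon 1, 5 were not called with it. Mrps12 (ENSMUSG00000045948), a protein of the decoding centre, had 47.6, 21.3 and 22.2 CPM in shCon 1 to 3 and 35.9, 41.4 and 40.6 CPM in shCopa 1 to 3. The single value of shCon 1 lay above all 3 knockdown libraries, and the other 2 controls lay far below them. With all libraries the log2 fold change was 0.38 ± 0.30 (edgeR adjusted p = 0.364), and without shCon 1 it was 0.85 ± 0.09 (edgeR adjusted p = 1.17e-07), a 1.81-fold rise.

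Mrpl17, a large-subunit protein with a bacterial counterpart, had 50.6, 30.8 and 31.0 CPM in shCon and 46.1, 47.6 and 45.8 CPM in shCopa, and rose without shCon 1 (log2 0.59 ± 0.07, edgeR adjusted p = 1.48e-06; 0.31 ± 0.20 and edgeR adjusted p = 0.249 with all libraries). Mrps28, the homologue of bacterial S1, had 13.5, 5.62 and 5.54 CPM in shCon and 9.29, 10.7 and 8.89 CPM in shCopa, and rose 1.72-fold without shCon 1 (edgeR adjusted p = 0.000268; 0.629 with all libraries). Both show the pattern of Mrps12: the call rests on which control libraries are used.

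Mrpl33 (ENSMUSG00000106918), the member with the highest level per kilobase, had 108, 63.8 and 64.2 CPM in shCon and 78.9, 83.8 and 85.1 CPM in shCopa, and its log2 fold change without shCon 1 was 0.36 ± 0.06 (edgeR adjusted p = 7.06e-05), which fell to 0.13 (edgeR adjusted p = 0.0792) with offsets for GC content and transcript length. Mrpl44, an RNase III-like protein of the large subunit, had 20.9, 14.8 and 15.7 CPM in shCon and 20.6, 21.6 and 21.5 CPM in shCopa, with 0.47 ± 0.10 (edgeR adjusted p = 0.000423). In both, shCon 2 and 3 lay below all knockdown libraries, and shCon 1 did so in neither. The 4 falls that passed only without shCon 1 were Mrpl51, Mrps5, Mrps11 and Mrps25, with log2 fold changes of -0.30, -0.23, -0.30 and -0.24. They were chosen here after their values were seen.

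The largest fitted falls with all libraries belonged to 2 members that were not called in either fit. Mrps24 had 39.2, 8.28 and 13.0 CPM in shCon 1 to 3 and 7.38, 10.4 and 7.32 CPM in shCopa 1 to 3. Its log2 fold change of -1.26 (edgeR adjusted p = 0.107) became -0.35 (edgeR adjusted p = 0.216) without shCon 1. Mrps34, a small-subunit protein with no bacterial counterpart, had 79.8, 26 and 41.7 CPM in shCon and 24.1, 25.5 and 18.1 CPM in shCopa, with -1.12 (edgeR adjusted p = 0.0525) and -0.59 (edgeR adjusted p = 0.179). Its controls span a 3-fold range, and the lowest is close to the knockdown libraries. Both genes are named here after their values were seen.

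By subunit and origin, the calls did not gather in 1 class. With all libraries, 2 of 51 large-subunit members rose and 8 fell, and 3 of 26 small-subunit members rose and 2 fell. Without shCon 1, 16 of 51 rose and 9 fell in the large subunit, and 9 of 26 rose and 5 fell in the small subunit. Of 45 members with a bacterial counterpart, 13 rose and 8 fell without shCon 1. Of the 32 without one, 12 rose and 6 fell, and the medians of both classes were 0.14. Mrps18a and Mrps18b, though homologues of bacterial S18, were counted in the class without a counterpart, and Mrps18c in the class with one. Differences between classes were not tested. Mrps36, the member outside the ribosome, had -0.38 (edgeR adjusted p = 0.200) with all libraries and -0.09 without shCon 1, and was not called.

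The stalk of the large subunit, where translation factors dock, held members that moved in opposite directions. Mrpl54 had 48.4, 24.7 and 21.4 CPM in shCon 1 to 3 and 14.7, 14.3 and 15.1 CPM in shCopa 1 to 3. All knockdown libraries lay below all controls, and the log2 fold change was -1.10 ± 0.30 (edgeR adjusted p = 0.0235), or -0.65 ± 0.10 without shCon 1 (edgeR adjusted p = 2.12e-05). Mrpl11, at the stalk base, fell as well, from 47.2, 33.4 and 33.5 CPM to 26, 23.3 and 28.1 CPM (-0.56 ± 0.16, edgeR adjusted p = 0.0293; -0.38 without shCon 1). Mrpl12, the repeated protein of the stalk tip, had 67.1, 44.1 and 42.6 CPM in shCon and 49.3, 58.4 and 55.0 CPM in shCopa, and rose only without shCon 1 (0.32 ± 0.08, edgeR adjusted p = 0.00176). The other 2 stalk members, Mrpl10 and Mrpl53, were not called in either fit.

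At the exit of the peptide tunnel, where new chains meet the inner membrane, 1 of 5 members was called. Mrpl45, which anchors the ribosome to the membrane, had 35.9, 29.1 and 30.3 CPM in shCon and 31.9, 38.1 and 42.2 CPM in shCopa, and its rise of 0.33 ± 0.10 passed only without shCon 1 (edgeR adjusted p = 0.0140), and not there with the length and GC offsets (0.22, edgeR adjusted p = 0.0555). Mrpl24 (-0.19) and Mrpl22 (0.22), the next by adjusted p in that fit, were not called. In the central protuberance, which bridges the subunits, Mrpl48 fell in both fits, whereas Mrpl40 (0.39 ± 0.09, edgeR adjusted p = 0.00143) and Mrpl27 (0.27 ± 0.09, edgeR adjusted p = 0.0163) rose only without shCon 1; with the offsets Mrpl27 was at 0.10 (edgeR adjusted p = 0.302). Of the 3 homologues of bacterial S18, only Mrps18b was called; Mrps18a in the large subunit and Mrps18c in the small one had log2 fold changes of 0.03 and -0.15 without shCon 1, and the differences between the 3 genes were not tested.

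The promoter letters shown above were set against these calls. Of the 8 members with the NRF1 core, 6 rose, none fell and 2 were not called without shCon 1; they were Mrpl9, Mrpl10, Mrpl17, Mrpl22, Mrpl32, Mrpl33, Mrpl39 and Mrps18b. With all libraries, 2 of the 8 rose (Mrpl32 and Mrps18b). Among all tested genes with these letters, 27.1% rose and 30.7% fell without shCon 1. Of the 26 members with the ETS letters, 2 rose and 3 fell with all libraries, and 10 rose and 4 fell without shCon 1, where 30.8% of tested genes with these letters rose and 24.6% fell. Of the 12 with the YY1 core, 2 rose and none fell with all libraries, and 3 rose and 1 fell without shCon 1, where 29.0% of tested genes with it rose and 29.4% fell. The members were few, and no test was made of these counts.

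The promoter-binding factors themselves were measured too. Nrf1 had 28.2, 27.1 and 26.2 CPM in shCon and 33.4, 32.0 and 33.8 CPM in shCopa, and rose by 0.29 ± 0.09 (edgeR adjusted p = 0.0392). Gabpa, the DNA-binding subunit of GABP, and Yy1 were not called with all libraries (-0.04, edgeR adjusted p = 0.853, and -0.02, edgeR adjusted p = 0.878). Without shCon 1, Gabpa fell (-0.18, edgeR adjusted p = 0.0165), as did Gabpb2, which encodes a partner of Gabpa (-0.34, edgeR adjusted p = 0.00119), and Yy1 was not called (0.02). In the list of 11 regulators of mitochondrial biogenesis, 4 rose and 1 fell with all libraries, and 4 rose and 3 fell without shCon 1. Myc, whose product drives ribosome and mitochondrial biogenesis in growing cells, had 33.7, 34.9 and 28.7 CPM in shCon and 127, 143 and 141 CPM in shCopa (2.08 ± 0.11, edgeR adjusted p = 4.45e-05). Pprc1, a coactivator of the PGC-1 family, rose from 36.3, 48.8 and 44.6 CPM to 77.5, 86.0 and 84.6 CPM (0.94 ± 0.12, edgeR adjusted p = 0.00126). Ppargc1a, the founding coactivator of that family, fell from 15.8, 22.6 and 25.6 CPM to 13.4, 13.8 and 13.9 CPM (-0.64 ± 0.18, edgeR adjusted p = 0.0278). The 2 coactivators thus moved in opposite directions, and Max, the partner of Myc, made the fourth rise (0.36). Whether any of these changes bears on the members was not tested.

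**Figure D5:**
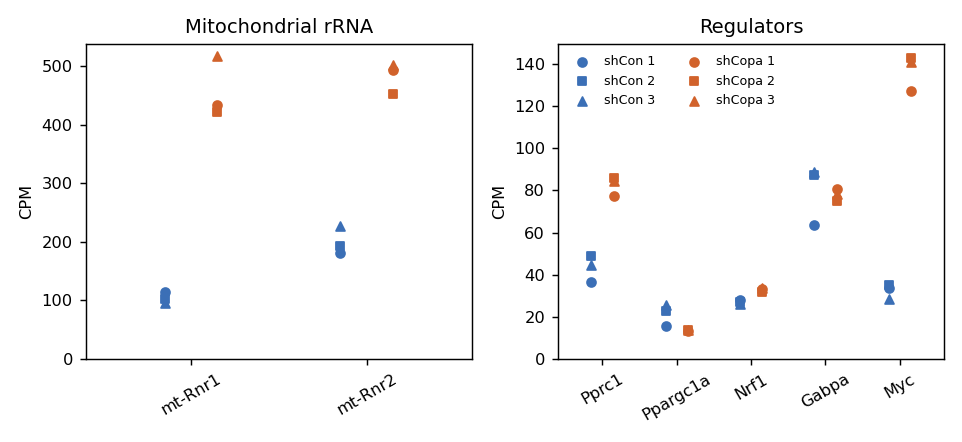
CPM in each library of the 2 mitochondrial rRNAs (left) and of 5 regulators of mitochondrial biogenesis (right), with blue for shCon, orange for shCopa and marker shape for the replicate. Both rRNAs, Myc and Pprc1 are higher in all 3 knockdown libraries than in all 3 controls, Ppargc1a is lower, and Gabpa overlaps.

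The RNA that these proteins bind had larger fold changes than any member that was called. mt-Rnr1, the rRNA of the small subunit, had 114, 103 and 95.3 CPM in shCon 1 to 3 and 434, 422 and 517 CPM in shCopa 1 to 3. mt-Rnr2, the rRNA of the large subunit, had 181, 193 and 228 CPM in shCon and 494, 453 and 502 CPM in shCopa. In both, every knockdown library was far above every control, and shCon 1 lay close to the other controls. The log2 fold changes were 2.14 ± 0.12 (edgeR adjusted p = 5.39e-05) and 1.27 ± 0.11 (edgeR adjusted p = 0.000235). The libraries were made with an mRNA kit, and how fully they hold these rRNAs was not tested. Of 13 mRNAs of the mitochondrial genome, which these ribosomes translate, none rose and 2 fell with all libraries: mt-Cytb by 0.59 ± 0.10 (edgeR adjusted p = 0.00307) and mt-Nd4 by 0.49 ± 0.12 (edgeR adjusted p = 0.0190) on the log2 scale. Without shCon 1 none rose and 5 fell. Some of these rows varied widely within a group. mt-Co3 had 114, 52.8 and 403 CPM in shCon 1 to 3, and mt-Atp6 had 179, 121 and 43.5 CPM in shCopa 1 to 3. mt-Co2 was at 1.22 ± 0.45 without shCon 1 and was not called (edgeR adjusted p = 0.107). Of the 13, 3 had a log2 fold change above 0 in that fit and 10 below. In such variable rows the lack of a call does not show a lack of change.

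Another 5 mitoribosomal proteins carry other names and were read beside the members. By edgeR none was called with all libraries, Ptcd3 (edgeR adjusted p = 0.0588) and Gadd45gip1 (edgeR adjusted p = 0.0707) being nearest. Without shCon 1, Dap3 (0.32), a GTP-binding protein of the small subunit, Ptcd3 (0.20) and Chchd1 (0.42) rose, Gadd45gip1 of the large subunit fell (-0.41) and Aurkaip1 (0.02) was not called. Their summed level was 198.4 CPM in shCon 1, 132.8 and 130.2 in shCon 2 and 3, and 141.1 to 149.7 in shCopa, which repeats the pattern of the members' sum. The 75 cytosolic ribosomal proteins found by symbol did so too: their sum was 25560 CPM in shCon 1, 15880 and 15360 in shCon 2 and 3, and 16900 to 18510 in shCopa. Of these 75, 1 rose and none fell with all libraries, and 46 rose and 2 fell without shCon 1.

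The genes that build and serve the mitochondrial ribosome had a smaller excess in shCon 1: its median on the log2 scale was 0.34 over assembly factors, 0.17 over translation factors and 0.07 over tRNA charging, against 0.56 over members. Their transcripts were also longer, with medians of 1857, 2605 and 2390 bases in the same order, against 1302 for members. The part of length in this difference was not tested. Of 28 assembly and rRNA-modification factors, 4 rose and 1 fell with all libraries, and 14 rose and 4 fell without shCon 1. Fastkd2, which binds the large rRNA, rose from 22.9, 18.8 and 19.3 CPM to 41.5, 35.1 and 41.1 CPM (0.95 ± 0.12, edgeR adjusted p = 0.00106). Gtpbp10, a GTPase that matures the large subunit, rose from 32.8, 36.0 and 36.5 CPM to 59.0, 59.8 and 58.9 CPM (0.75 ± 0.09, edgeR adjusted p = 0.000637). Trub2, a pseudouridine synthase, rose by 0.48 ± 0.10. In these 3 genes no control reached a knockdown library. Mpv17l2, a membrane protein of ribosome assembly, was the 1 that fell (-1.11, edgeR adjusted p = 0.0433), from 40.7, 15.2 and 18.6 CPM to 12.5, 11.4 and 10.4 CPM.

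Among 16 translation factors, 3 rose and 1 fell with all libraries, and 5 rose and 2 fell without shCon 1. Guf1, the mitochondrial homologue of the elongation factor LepA, fell by 0.49 ± 0.10 on the log2 scale (edgeR adjusted p = 0.00753). Lrpprc, which stabilises mitochondrial mRNAs, rose by 0.29 ± 0.08 (edgeR adjusted p = 0.0239), and Mtrf1, a release factor, by 0.70 ± 0.19 (edgeR adjusted p = 0.0243). Of 22 genes for mitochondrial tRNA charging, 1 rose (Kars, 0.34, which serves the cytosol too) and 3 fell with all libraries, and 3 rose and 3 fell without shCon 1. Hars2, the mitochondrial histidyl-tRNA synthetase, had 28.8, 25.2 and 26.5 CPM in shCon and 13.0, 11.4 and 13.1 CPM in shCopa, and was thus at 0.466 of control (-1.10 ± 0.11, edgeR adjusted p = 0.000416). Cars2 fell by 0.44 and Gatc, part of the amidotransferase that makes glutaminyl-tRNA, by 0.34. Of 10 genes for mitochondrial transcription and DNA replication, Tefm, the elongation factor, rose (0.82 ± 0.18, edgeR adjusted p = 0.00976), Polg, the DNA polymerase, fell (-0.33 ± 0.08, edgeR adjusted p = 0.0163), and the others were not called with all libraries. Without shCon 1, Tfam, which packages mitochondrial DNA (0.32, edgeR adjusted p = 0.00116), and the helicase gene Twnk (0.30, edgeR adjusted p = 0.00188) rose too, for 3 rises and 1 fall. Of 10 mitochondrial proteases and chaperones, Hspd1 (0.82 ± 0.08, edgeR adjusted p = 0.000379) and Hspa9 (0.40 ± 0.08, edgeR adjusted p = 0.00813) rose with all libraries and edgeR called none lower. Without shCon 1, 6 of the 10 rose, with Hspe1 (0.78), Clpp (0.44), Lonp1 (0.22) and Afg3l2 (0.20) added.

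As a check of the labelled cell type, the keratin genes of bile duct epithelium were high in all libraries (Krt19 at 522 to 621 CPM), while Epcam was near the floor at 0.177 to 0.789 CPM. Of 6 biliary markers tested, 4 fell in shCopa, Krt7 most (-1.44). Of 5 leukocyte markers, Cd3e and Adgre1 were at or near 0 in all libraries, while Ptprc rose from 0 to 0.0429 CPM in shCon to 0.929 to 1.26 in shCopa (edgeR adjusted p = 0.000641) and Lyz2 from 1.15 to 1.81 CPM to 7.99 to 8.44 (edgeR adjusted p = 0.000159); the summed level of the list was 14.21 to 16.10 CPM in shCon and 23.17 to 24.85 in shCopa. The fibroblast genes Col1a2, Col3a1 and Lum were at or near 0, with at most 0.389 CPM, and Dcn was at 164 to 220 CPM. Pdgfrb fell from 2.01 to 2.40 CPM to 0.486 to 1.12 (edgeR adjusted p = 0.0101), and Col1a1 rose only without shCon 1 (0.85, edgeR adjusted p = 0.0490). The hepatocyte list, led by Alb, summed to 8.365 to 13.27 CPM in shCon and 22.73 to 24.14 in shCopa, and Alb rose (2.29-fold, edgeR adjusted p = 0.00107). The endothelial list summed to at most 0.1716 CPM in shCon and to 1.503 to 3.334 in shCopa, and its 1 tested gene, Kdr, rose (edgeR adjusted p = 0.000965). The part of these shifts in the members' values was not tested, and in RNA from bulk cells fewer cells of a kind and less RNA a cell cannot be told apart. The library totals were 19634876 to 24546142 estimated counts.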

How the data were processed

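RNA of 6 libraries was analysed, 3 of shCon and 3 of shCopa cells, with groups and replicate numbers taken from the sample titles. TRIzol extracts of total RNA went through mRNA library preparation and paired-end sequencing, per the labels. The values the authors deposited are estimated counts for each Ensembl gene, 10.6% to 11.9% of them not whole in a library. The build GRCm39 and the tools DESeq2, featureCounts, HTSeq, HISAT2 2.0.5 and Trimmomatic are named in the submitters' processing notes. For the counting program, annotation and strandedness, the answer is not given in the sources used here. Symbols, gene types and transcript lengths came from GENCODE M21 by gene identifier; 52081 of 55414 identifiers had a symbol.

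Rounded counts entered edgeR 4.0.16 under R 4.3.3 (TMM, filterByExpr, robust quasi-likelihood F test, Benjamini-Hochberg over all genes tested, threshold 0.05), once with 14807 genes in 6 libraries and once with 15273 genes in the 5 libraries without shCon 1. A count of 3, the floor, corresponds to 0.123 to 0.152 CPM, for counting error only. The excess of shCon 1 was taken on log2 of CPM plus 0.5. Alternatives were other scaling (RLE, upper quartile), other filters, DESeq2 1.42.0, limma-voom (limma 3.58.1), offsets for GC content and transcript length (mgcv 1.9.3), a replicate block, a threshold of 0.01 and each library left out. Steps were tested on simulated data. Of simulated 1.5-fold changes, 14.9% were recovered with all libraries and 68.7% without shCon 1, and of 2-fold changes 76.1% and 86.6%. False calls made up 24 of 150 with all libraries and 23 of 188 without shCon 1. In these simulated data small changes were thus often missed, and false calls were more frequent than the threshold of 0.05 allows for. Among 14521 genes tested in the simulation with all libraries, 67 were changed 1.5-fold, 67 2-fold and 66 4-fold. In the real data 36.5% of tested genes were called with all libraries, and the simulation held no length trend in shCon 1. These shares may therefore not carry over to the real fits. Named were the 8 members with the smallest adjusted p in each direction in each fit, and those highest and lowest per kilobase. Also named were up to 3 of each role list, the other-named mitoribosomal proteins, Mrps36, Copa and up to 3 genes of each pathway list. Members and pathway genes outside these rules were named with their values known, also where this is not said. Among them are Mpv17l2, Gatc, Twnk, Clpp, Lonp1, Afg3l2, Nrf1, Gabpa, Yy1, Gabpb2 and Max. The members and lists were chosen with earlier results of these data known. Of the marker genes chosen, 1 is not reported here.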

Additional observations from a re-analysis of the deposited data

How the results depend on the processing

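With all libraries, the 5 rises and 10 falls became 3 rises with no filter on low counts, 0 rises and 5 falls with the replicate block, 21 falls with offsets for transcript length and GC content, and 0 rises and 2 falls at a threshold of 0.01. Leaving out each library in turn gave 0 to 25 rises and 2 to 14 falls, and a median log2 fold change of -0.27 to 0.13, which turned positive only without shCon 1 (0.13). The share of all genes called moved too. It was 11.7% to 28.3% higher and 11.6% to 27.0% lower with a library left out, and 13.3% and 13.1% with the replicate block. Of the 15 calls, 5, 4 and 3 were kept without shCopa 1, 2 and 3, 11 without shCon 2, 14 without shCon 3 and 15 without shCon 1. Without shCon 1, the 25 rises and 14 falls became 12 and 25 with length and GC offsets, with a median of 0.01 in place of 0.13; the median was 0.16 with upper-quartile scaling, and 14 rises were left at a threshold of 0.01. Leaving out a further library gave 13 to 30 rises, 13 to 15 falls and medians of 0.07 to 0.12; where that leaves 1 control, its spread is assumed to be that of the other group. The length and GC offsets also moved all genes, to 21.3% higher and 27.0% lower with all libraries, with a median shift of all genes to -0.06. Without shCon 1 they moved all genes to 25.6% higher and 31.5% lower, with a median of -0.05. No filter moved the median of all genes to 0.11 without shCon 1. Replicate numbers did not pair the libraries: deviations of same-numbered libraries correlated at -0.162, -0.058 and -0.114. Without shCon 1 the replicate block gave 26 rises and 12 falls. DESeq2 gave 5 rises and 15 falls with all libraries, and 18 rises and 12 falls without shCon 1. It kept all 15 calls in the first case and 30 of 39 in the second. Of tested genes it called 20.2% higher and 20.6% lower with all libraries, and 25.4% and 24.4% without shCon 1. No named member changed sign in the alternatives run for the fit in which it was called. The causes of these changes were not tested. Apart from Mrpl23, no member had fewer than 131 counts in a library.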
